A study of Mus musculus with 16 samples.

Results

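The genes described here encode the constitutive proteasome, the cell's main machine for degrading proteins tagged with ubiquitin, and the proteins that activate, inhibit or assemble it. They were chosen by name: Psma1 to Psma7, Psmb1 to Psmb7, Psmc1 to Psmc6, Psmd1 to Psmd14, Psme1 to Psme4, Psmf1 and Psmg1 to Psmg4, which gave 43 genes of the 45777 in the expression table. No measured value was used as a criterion, but earlier results of these data were known when the choice was made. The immunoproteasome genes Psmb8, Psmb9 and Psmb10 were left out and serve as a comparison. RNA was measured in 16 whole tumors grown from B16F10, a melanoma cell line of C57BL/6 origin, in syngeneic hosts. The hosts were lean C57BL/6J mice or obese C57BL/6J-ob/ob mice, which lack functional leptin. Tumors were taken pre-therapy, or post-therapy after a course of etoposide (ETS), a topoisomerase poison that breaks DNA, with 4 tumors in each of the 4 groups. The mice were 6 weeks old when the cells were injected under the skin of the flank, and ETS was given intraperitoneally at 20 mg per kg on 5 days once a tumor had formed. Every tumor carried the same cell line, so the leptin defect lies in the host and not in the melanoma cells.

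In the 26S proteasome, 7 alpha subunits form the outer rings of the barrel-shaped 20S core and gate its entry, while 7 beta subunits form the inner rings that hold the active sites. The 19S particle caps the barrel. Its 6 ATPases unfold substrates and push them inward, and its non-ATPase subunits bind ubiquitin chains and cut them off. Other proteins open the core without ubiquitin, above all PA28, built from the products of Psme1 and Psme2. Interferon gamma induces PA28 together with 3 replacement catalytic subunits, a combination known for making peptides for MHC class I presentation.

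Reads assigned to genes totalled 47199949 to 61655287 per tumor, and each of the 43 genes had reads in every tumor. All 43 therefore entered the comparisons across 16209 genes, and none was lost where genes with a 0 in any tumor were set aside. Values per tumor are counts relative to library size (CPM) after TMM scaling, which sets the typical gene level between tumors. Levels between genes are given as TPM, which corrects for transcript length. Changes are log2 fold changes with their standard error (SE), and "adjusted p" is that of edgeR's quasi-likelihood test with Benjamini-Hochberg adjustment over all 16209 genes. A gene rose or fell where it was below 0.05. Nothing in the labels says from how many animals the 4 tumors of a group came, so the p-values measure the spread between tumors. In whole tumors, fewer cells of a type and less RNA per cell cannot be told apart.

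The members differed in level by their place in the complex. Mean levels over the 16 tumors ran from 23.3 TPM for Psmd10 to 552 TPM for Psmd8. The beta ring genes lay between 206 TPM (Psmb2) and 485 TPM (Psmb3) with a median of 344, and the alpha ring genes between 169 TPM (Psma1) and 393 TPM (Psma7) with a median of 225. The 6 ATPases of the 19S base had a median of 264 TPM and the 11 non-ATPase subunits one of 179. The 20S assembly chaperones Psmg1 to Psmg4, which act only while the core is being built, had a median of 45.7 TPM, and the 19S assembly chaperones Psmd5, Psmd9 and Psmd10 one of 28.3. Tumors of 1 group were close to each other. The median coefficient of variation over the 43 genes was 9.29% in lean tumors before therapy, 11.53% in lean tumors after ETS, 7.92% in obese tumors before therapy and 9.26% in obese tumors after ETS.

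**Figure D1:**
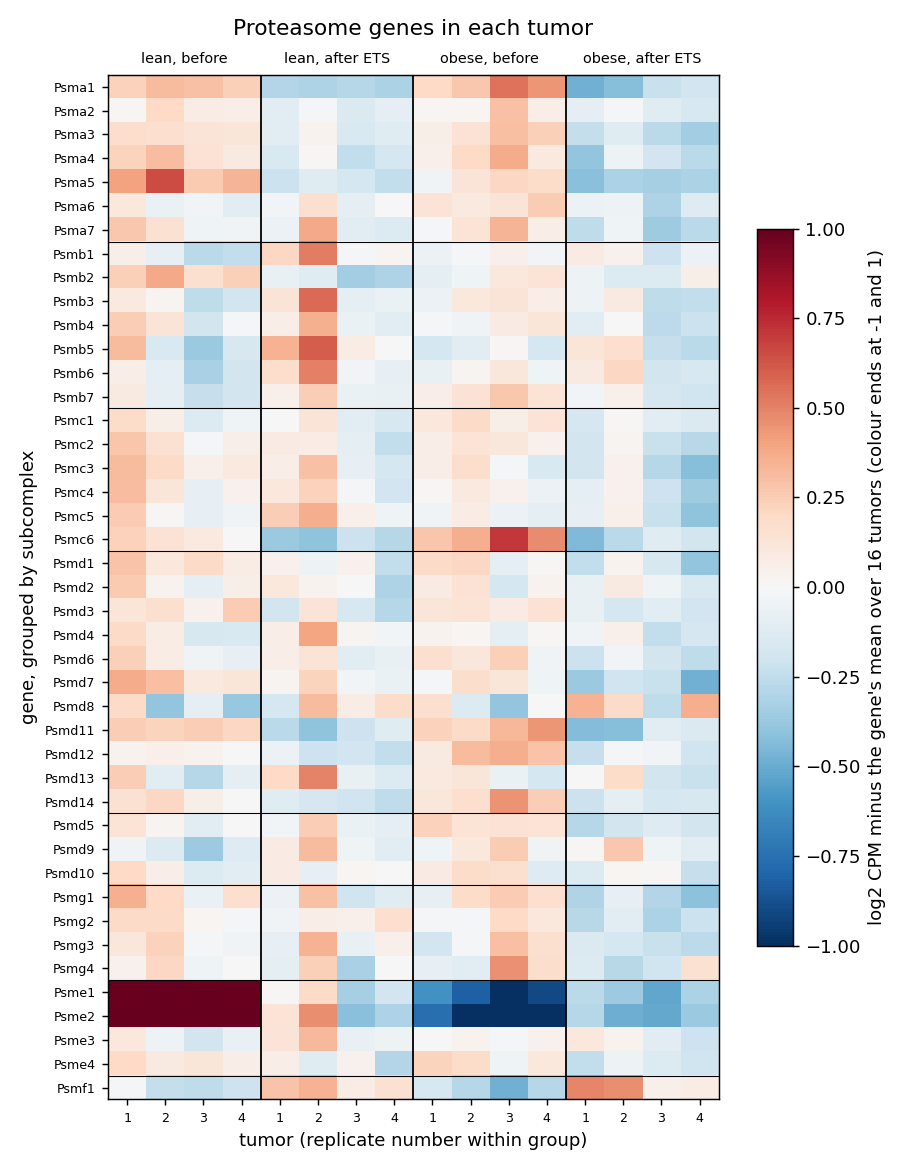
Each row is a gene and each column a tumor, and the colour is the log2 CPM minus that gene's mean over the 16 tumors, with colours ending at -1 and 1. Psme1 and Psme2 are darkest red in the 4 lean tumors before therapy and blue in the 4 obese tumors before therapy, while most other rows vary by less than 0.5.

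The first comparison set tumors after ETS against tumors before therapy in each host, and this contrast is what an ETS effect means below. The untreated tumors are titled ctrl, and the study describes them as pre-chemotherapy. If they were taken earlier than the treated tumors, effects of the drug and of tumor age cannot be told apart. Of the 43 members, 12 fell and 2 rose in lean hosts, whereas 20 fell and 3 rose in obese hosts. Among all genes tested, 22.8% fell and 21.0% rose in lean tumors, and 19% fell and 21.2% rose in obese tumors. Under TMM scaling the members' share of falls was thus near the background in lean tumors and above it in obese tumors, and rises were fewer than the background in both. Over the 43 members the median log2 change was -0.0651 in lean tumors, against -0.0149 for all genes, and -0.235 in obese tumors, against 0.00662 for all genes. In obese tumors 38 of 43 had a negative value, and in lean tumors 28 of 43. Of the called members, 9 fell in both hosts and 1 rose in both, 2 were called in lean tumors only, 11 in obese tumors only, and 2 in opposite directions. Whether a call in 1 host differs from no call in the other is answered by the test of the difference given further on, which called 4 members.

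The count of falls in lean tumors depended on scaling. On the authors' TPM values, log2(TPM + 1) fitted with limma called 34 members lower and 0 higher in lean tumors, and 29 lower and 3 higher in obese tumors. Of all 16209 genes it called 7281 lower and 1351 higher in lean tumors, and 3333 lower and 2572 higher in obese tumors. The members' share of falls on this TPM scale thus lay above that of all genes in both hosts. On that scale the median of all genes was -0.275 in lean tumors and -0.0517 in obese tumors, so changes are given here relative to the typical gene. With plain library totals and no TMM the lean tumors had 24 falls and 1 rise. Among all 16209 genes there were 5400 falls and 2279 rises, so the members' share of falls was again above the background. With each tumor centred on its median gene on the TPM scale, an alternative chosen after the data were seen, the members had 7 falls and 6 rises in lean tumors. Among all genes that setting gave 2254 falls and 6654 rises.

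**Figure D2:**
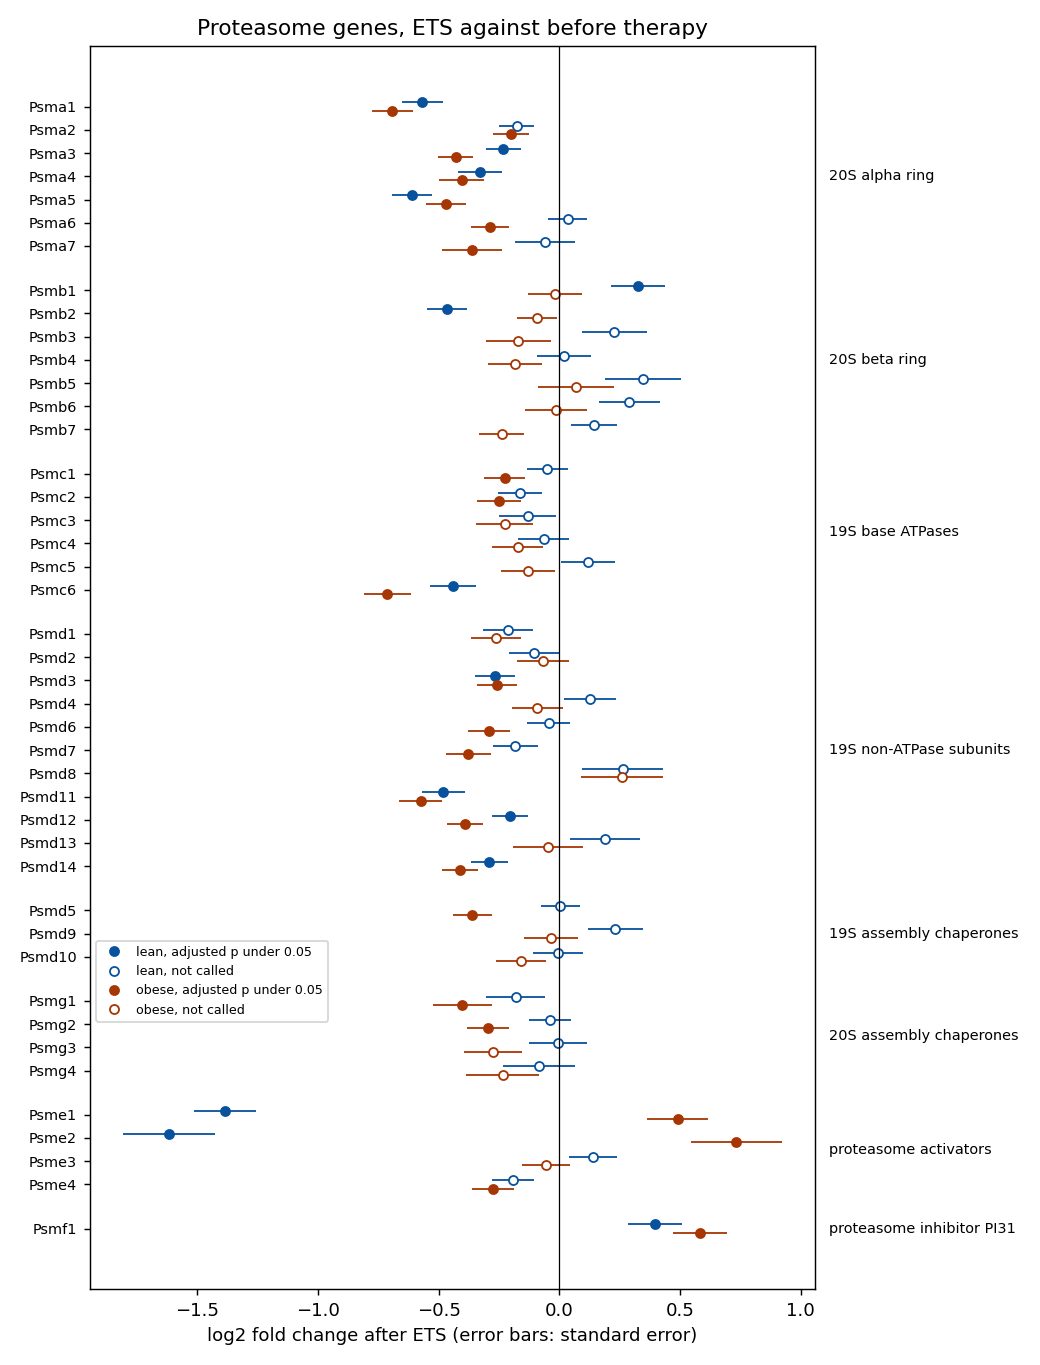
Log2 fold changes after ETS (x axis, with SE bars) are plotted for the 43 genes by subcomplex, in blue for lean and in brown for obese tumors, and filled points passed an adjusted p of 0.05. All 7 alpha ring genes are filled and left of 0 in obese tumors and no beta ring gene is, and Psme1 and Psme2 lie on opposite sides of 0 in the hosts.

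The alpha ring was the group with the most falls. In obese tumors 7 of 7 alpha genes fell, with log2 changes between -0.69 (Psma1) and -0.20 (Psma2). In lean tumors 4 of 7 fell, namely Psma1, Psma3, Psma4 and Psma5. Falls made up 19% of all genes in obese and 22.8% in lean tumors. Psma1 read 125, 133, 131 and 126 CPM in the 4 lean tumors before therapy and 86.9, 86.1, 87.7 and 85.8 CPM after ETS. Obese tumors read 122, 129, 155 and 145 CPM before and 76.6, 79.4, 91.6 and 93.6 CPM after. Every treated tumor lay below every untreated tumor of its host, and the changes were -0.57 (SE 0.0840, adjusted p = 1.31e-04) in lean and -0.69 (SE 0.0842, adjusted p = 4.71e-05) in obese tumors. Psma5 had the largest fall of a core subunit in lean tumors. Its values went from 146, 173, 132 and 140.0 CPM to 95.3, 101.4, 97.7 and 93.3 CPM in lean tumors, a change of -0.61 (SE 0.0830, adjusted p = 6.81e-05). In obese tumors they went from 108, 121, 128 and 125 to 82.5, 88.5, 88.0 and 88.8 CPM, a change of -0.47 (SE 0.0830, adjusted p = 6.07e-04), again without overlap. The obese calls for Psma2 and Psma7 were the least firm of the ring, since they were lost when any of 6 and 4 single tumors, respectively, was left out of the 16.

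The beta ring behaved otherwise. Under TMM scaling no beta gene was called in obese tumors, where the 7 log2 changes lay between -0.24 (Psmb7) and 0.07 (Psmb5). In lean tumors 6 of 7 were positive under TMM scaling and 0 of 7 on the TPM scale, and under TMM only Psmb1 rose and Psmb2 fell. Psmb1, a structural beta subunit, read 196, 177, 156 and 159 CPM before and 217, 268, 186 and 192 CPM after ETS in lean tumors. The groups overlap, and lean tumor 2 after ETS stands highest. The change was 0.33 (SE 0.112, adjusted p = 0.0275), its call was lost without any of 4 single tumors (lean 3 or 4 before therapy, lean 1 or 2 after ETS), it shrank to 0.198 without lean tumor 2 after ETS, and it turned to -0.0582 on the TPM scale. Psmb2, the other structural subunit called, read 104, 115, 98.9 and 105 CPM before and 84.0, 81.5, 69.4 and 71.4 CPM after ETS in lean tumors, which do not overlap, and fell by 0.46 on the log2 scale (SE 0.0835, adjusted p = 5.60e-04). In obese tumors Psmb2 read 83.0, 85.9, 95.3 and 97.1 CPM before and 85.6, 80.5, 80.6 and 92.0 CPM after, which overlap.

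The 3 genes for the active sites of the constitutive core were not called in either host under TMM scaling. Psmb5, for the chymotrypsin-like site, read 156, 113, 96.9 and 112 CPM in lean tumors before and 159, 191, 132 and 125 CPM after ETS. In the obese host the values were 111, 116, 127 and 111 CPM before and 136, 141, 107 and 104 CPM after. The ranges overlap in both hosts, with changes of 0.35 (SE 0.156, adjusted p = 0.0832) and 0.07 (SE 0.156, adjusted p = 0.763). Psmb6, for the caspase-like site, had means of 159 ± 18.2 and 195 ± 37.1 CPM (SD, n = 4) before and after ETS in lean tumors and 175 ± 9.82 and 174 ± 23.2 CPM in obese tumors, with changes of 0.29 (SE 0.128, adjusted p = 0.0771) and -0.01 (SE 0.128, adjusted p = 0.953). Psmb7, for the trypsin-like site, had means of 168 ± 17.2 and 186 ± 19.8 CPM in lean and 201 ± 11.6 and 170.2 ± 13.8 CPM in obese tumors, with changes of 0.14 (SE 0.0941, adjusted p = 0.228) and -0.24 (SE 0.0941, adjusted p = 0.0547). The lean changes of Psmb5, Psmb6 and Psmb7 were positive under TMM and -0.0269, -0.0969 and -0.234 on the TPM scale, where the obese change of Psmb5 was -0.0360. Psmb7 ran from 368 to 389 TPM before and from 307 to 332 TPM after ETS in lean tumors. In obese tumors Psmb7 ran from 390 to 441 and from 303 to 350 TPM. Its TPM did not overlap in either host, while that of Psmb5 and Psmb6 overlapped in both.

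The balance of the rings can be read without any scaling between tumors, as the summed TPM of the 7 alpha genes over that of the 7 beta genes within a tumor. This ratio was 0.724, 0.737, 0.860 and 0.770 in lean tumors before therapy and 0.568, 0.508, 0.632 and 0.662 after ETS. In obese tumors it was 0.678, 0.739, 0.784 and 0.766 before and 0.581, 0.560, 0.650 and 0.609 after. In each host the treated tumors lay below all untreated tumors, so that alpha transcripts were scarcer relative to beta transcripts after ETS. No p is attached to this sum over chosen genes. It includes Psma3, whose TPM varied more than its CPM. In lean tumors before therapy Psma3 read 351, 198, 378 and 308 TPM but 215, 214, 208 and 206 CPM. The part of Psma3 in the ratio was not tested. The 19S to 20S ratio, in contrast, ranged from 0.898 to 0.942 and from 0.864 to 0.956 in lean tumors before and after ETS, and from 0.804 to 1.005 and from 0.923 to 0.963 in obese tumors, which overlap.

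**Figure D3:**
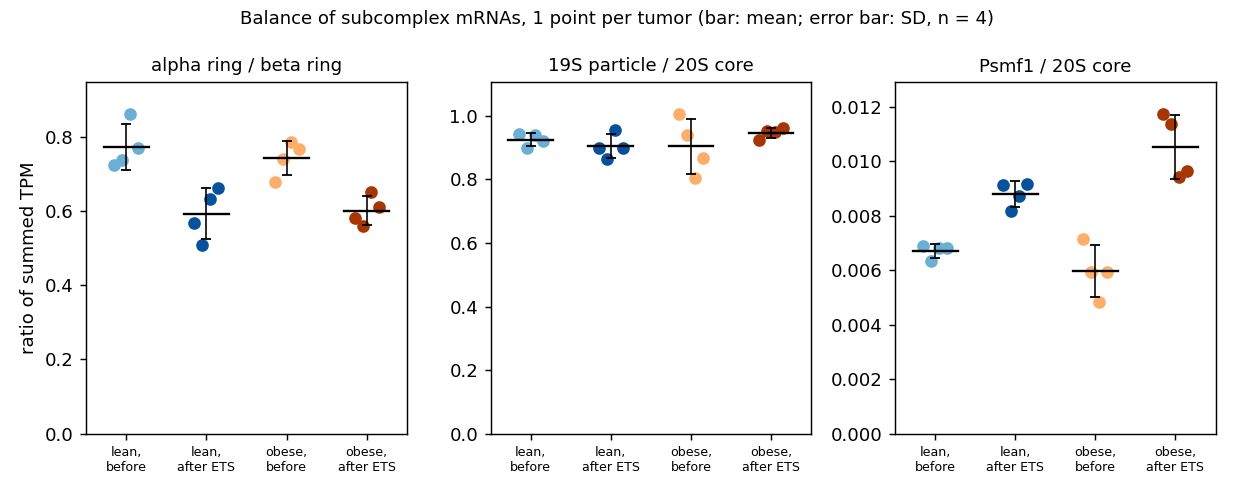
Points are tumors, bars are means and error bars are SD (n = 4), and the y axis is a ratio of summed TPM within a tumor. The alpha to beta ratio is lower after ETS in both hosts, the 19S to 20S ratio overlaps between groups, and the ratio of Psmf1 to the 20S core is higher after ETS.

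Among the 6 ATPases of the 19S base, 1 fell in lean and 3 in obese tumors under TMM scaling, while none rose. Of all genes, 22.8% fell in lean and 19% in obese tumors. Psmc6 fell in both hosts and had the largest fall of all members in obese tumors. It read 122, 129, 164 and 139 CPM in obese tumors before therapy and 74.0, 83.4, 92.5 and 88.2 CPM after, a change of -0.71 (SE 0.0965, adjusted p = 9.46e-05). In lean tumors it read 118, 111, 108 and 100.4 CPM before and 77.5, 75.8, 86.4 and 82.4 CPM after, a change of -0.44 (SE 0.0962, adjusted p = 0.00222). Treated and untreated tumors do not overlap in either host. The obese calls of the other 2, Psmc1 and Psmc2, had adjusted p = 0.0466 and 0.0416 and were lost without any of 11 and 8 single tumors, respectively. In lean tumors the mean TPM of Psmc1 and Psmc2 also went down, from 361 to 269 and from 252 to 173.

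Of the 11 non-ATPase subunits of the 19S particle, 4 fell in lean and 6 in obese tumors, and none rose. The shares of all genes that fell were 22.8% in lean and 19% in obese tumors. Psmd3, Psmd11, Psmd12 and Psmd14 fell in both. Psmd11, a scaffold of the lid, read 132, 130.3, 132 and 129 CPM before and 92.3, 84.1, 96.5 and 102 CPM after ETS in lean tumors. The obese host gave 130.5, 127, 139.9 and 152 CPM before and 82.6, 83.0, 103 and 100.7 CPM after. Neither host shows overlap, and the changes were -0.48 (SE 0.0891, adjusted p = 6.91e-04) and -0.57 (SE 0.0892, adjusted p = 2.42e-04). Psmd14, the enzyme that removes ubiquitin chains as a substrate enters, changed by -0.29 (SE 0.0763, adjusted p = 0.00690) in lean and -0.41 (SE 0.0764, adjusted p = 8.67e-04) in obese tumors. Psmd12, another lid subunit, changed by -0.21 (SE 0.0752, adjusted p = 0.0374) and -0.39 (SE 0.0752, adjusted p = 0.00113), and its lean call was lost without any of 7 single tumors. Psmd4, a ubiquitin receptor, was not called in either host. Its means were 187 ± 22.8 and 204 ± 28.4 CPM in lean and 186 ± 7.35 and 175 ± 16.2 CPM in obese tumors before and after ETS, and the lean change of 0.13 was -0.250 on the TPM scale.

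Of the 7 assembly chaperones, 3 were called in obese tumors, all of them falls, and none in lean tumors under TMM scaling. Beside them, 19% of all genes fell in obese and 22.8% in lean tumors. Of the 20S chaperones, Psmg1 and Psmg2, whose products pair to build the alpha ring, changed by -0.40 (SE 0.122, adjusted p = 0.0167) and -0.30 (SE 0.0877, adjusted p = 0.0151) in obese tumors. Their lean changes were -0.18 and -0.04 (adjusted p = 0.239 and 0.747). Psmg3 and Psmg4, which form the other pair, had obese changes of -0.28 and -0.24 (adjusted p = 0.0782 and 0.225), and their lean changes were -0.00389 and -0.08 (adjusted p = 0.982 and 0.669). The difference between hosts was not called for any of the 4 (adjusted p = 0.414, 0.175, 0.301 and 0.678 for Psmg1 to Psmg4), and on the TPM scale their lean changes were -0.550, -0.397, -0.379 and -0.459, each of them called. Of the 19S chaperones, Psmd5 fell in obese tumors, from 59.2, 55.5, 55.7 and 55.5 CPM to 41.4, 44.3, 46.0 and 44.5 CPM, a change of -0.36 (SE 0.0810, adjusted p = 0.00309) with no overlap. In lean tumors it read 55.3, 51.3, 46.9 and 50.6 CPM before and 49.5, 59.9, 48.2 and 47.1 CPM after, with overlap. Psmd9 and Psmd10 were not called.

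The activators held the largest changes of all members. Psme1 and Psme2 encode the alpha and beta subunits of PA28. Psme1 read 217, 262, 206 and 208 CPM in lean tumors before therapy and 90.0, 102, 71.1 and 78.3 CPM after ETS. The obese tumors had 58.6, 50.8, 40.8 and 47.8 CPM before and 74.4, 69.4, 62.3 and 72.0 CPM after. The lean tumors before therapy stand above all others, and the obese tumors before therapy stand below all others. Psme1 thus fell in lean tumors, -1.39 (SE 0.128, adjusted p = 3.62e-06), and rose in obese tumors, 0.49 (SE 0.126, adjusted p = 0.00704).

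Psme2 followed the same order of groups. It read 185, 215, 163 and 177 CPM in lean tumors before therapy and 65.9, 82.3, 44.7 and 48.2 CPM after ETS. In obese tumors it read 35.4, 29.2, 19.96 and 23.6 CPM before and 49.0, 42.6, 41.8 and 46.3 CPM after. It changed by -1.62 (SE 0.191, adjusted p = 2.26e-05) in lean and by 0.73 (SE 0.189, adjusted p = 0.00693) in obese tumors. These 4 calls held in each of the 16 fits that left out a single tumor. As a share of the machinery, the summed TPM of Psme1 and Psme2 over that of the 14 core genes was 0.173 to 0.223 in lean tumors before therapy, 0.0607 to 0.0752 in lean tumors after ETS, 0.0257 to 0.0472 in obese tumors before therapy and 0.0559 to 0.0678 in obese tumors after ETS.

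The other activators did not share this course. Psme3 encodes PA28 gamma, a nuclear relative of PA28 that interferon is not known for inducing. It read 283, 253, 231 and 249 CPM before and 286, 329, 249 and 253 CPM after ETS in lean tumors. In the obese host the values were 262, 268, 259 and 270.2 CPM before and 282, 269, 243 and 227 CPM after. The CPM ranges of the 4 groups overlap, and no comparison called it under TMM scaling, with changes of 0.14 (SE 0.0987, adjusted p = 0.267) in lean and -0.05 (SE 0.0987, adjusted p = 0.694) in obese tumors. On the TPM scale these were -0.242 and -0.152. There it ran from 199 to 208 TPM before and 162 to 182 after ETS in lean tumors. Obese tumors had 188.2 to 204 and 166 to 187.9 TPM, so neither host overlapped. Psme4, for the large activator PA200, changed by -0.19 (SE 0.0865, adjusted p = 0.0835) in lean and -0.27 (SE 0.0866, adjusted p = 0.0203) in obese tumors, and the obese call was lost without any of 3 single tumors.

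**Figure D4:**
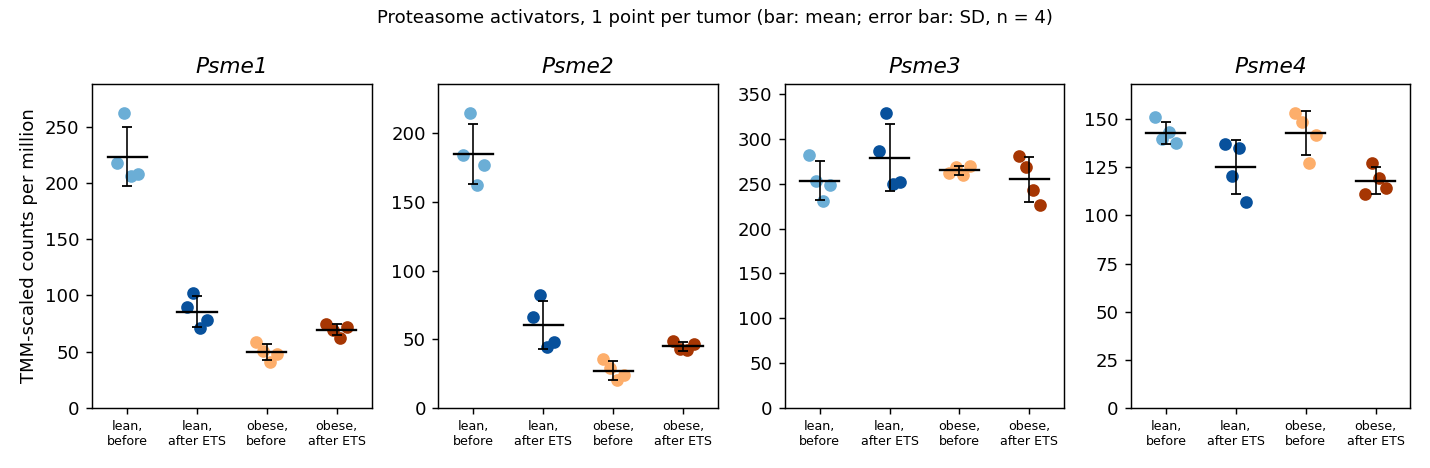
TMM-scaled CPM of the 4 activator genes is plotted per tumor, with bars at the group mean and error bars of SD (n = 4). Psme1 and Psme2 are highest in lean tumors before therapy and lowest in obese tumors before therapy, with both treated groups between, while the Psme3 groups overlap.

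Psmf1 encodes PI31, which binds the core, inhibits it in the test tube and has been linked to its transport. It was the single member that rose in both hosts under TMM scaling. It read 57.9, 49.7, 49.3 and 50.7 CPM before and 71.4, 74.7, 61.8 and 65.1 CPM after ETS in lean tumors, and the tumors do not overlap. The obese host gave 52.4, 48.0, 42.0 and 48.1 CPM before and 82.2, 81.0, 60.7 and 61.8 CPM after, also without overlap. The changes were 0.40 (SE 0.111, adjusted p = 0.0101) and 0.58 (SE 0.111, adjusted p = 0.00104), but on the TPM scale the lean change was 0.00563 and was not called. Against the summed TPM of the 14 core genes, Psmf1 stood at 0.00633 to 0.00690 in lean tumors before and 0.00817 to 0.00916 after ETS, and at 0.00484 to 0.00716 and 0.00941 to 0.0117 in obese tumors. Its annotated span overlaps that of the gene Tmem74b, so reads could be shared if strand was not used in counting.

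The second comparison asked whether the hosts differed in their response. The test of the difference, the lean change minus the obese change, called 3 members lower and 1 higher, against 10.1% and 6.35% of all genes. Psme1 and Psme2 had the largest differences, -1.88 (SE 0.180, adjusted p = 1.78e-05) and -2.35 (SE 0.268, adjusted p = 4.64e-05). The other 2 were smaller. Psmb2 fell in lean tumors and was not called in obese tumors, with a difference of -0.37 (SE 0.118, adjusted p = 0.0426). Psmd5 fell in obese tumors and was not called in lean tumors (0.00360, adjusted p = 0.965), with a difference of 0.36 (SE 0.114, adjusted p = 0.0410). On the TPM scale, though, the lean change of Psmd5 was -0.374 and its difference 0.0735. The call of Psmb2 was lost without any of 6 single tumors and that of Psmd5 without any of 12, while those of Psme1 and Psme2 held in all 16 fits. For the other 39 members, including all 7 alpha genes, no difference between hosts was called. The median difference over the 43 was 0.185, against 0.0524 for all genes, and 36 of 43 were positive, which is to say less negative or more positive in lean tumors. On the TPM scale the median difference was -0.0988, against -0.159 for all genes.

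The third comparison set obese against lean tumors. Before therapy 3 members were lower in obese tumors and 2 higher, below the 12.9% and 13.5% of all genes. Psme1 and Psme2 were lower, -2.17 (SE 0.131, adjusted p = 6.92e-08) and -2.77 (SE 0.1996, adjusted p = 2.91e-07), and for both genes every obese tumor lay below every lean tumor. Psma5 was also lower, -0.30 (SE 0.0828, adjusted p = 0.0156), with no overlap, and was not called without lean tumor 2 (-0.211) or without obese tumor 1 (-0.246) before therapy. Psmc6 and Psmd12 were higher in obese tumors, 0.34 (SE 0.0961, adjusted p = 0.0157) and 0.24 (SE 0.0751, adjusted p = 0.0278), and neither was called on the TPM scale (0.207 and 0.101). The call of Psmc6 was also lost without lean tumor 4 or obese tumor 3 before therapy, and that of Psmd12 without any of 6 tumors. The remaining 38 were not called, and the median of the 43 was 0.0164.

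After ETS only Psmd7 was called between hosts, lower in obese tumors, against 2.30% of all genes lower and 3.28% higher. Psmd7, a lid subunit that pairs with the deubiquitinase Psmd14, read 172, 196, 165 and 160.3 CPM in lean and 129.8, 147, 144 and 120.1 CPM in obese tumors after ETS, a difference of -0.36 (SE 0.0935, adjusted p = 0.0409). The groups do not overlap, yet the call was lost without any of 8 single tumors. Psme1 and Psme2 no longer passed, with differences of -0.30 (SE 0.126, adjusted p = 0.159) and -0.42 (SE 0.187, adjusted p = 0.175). For both genes the 4 lean and 4 obese tumors overlapped after ETS. These comparisons share groups with those above and are not independent of them.

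The catalytic subunits of the immunoproteasome replace those of the constitutive core one for one, Psmb8 for Psmb5, Psmb9 for Psmb6 and Psmb10 for Psmb7, so each pair was set as a ratio of TPM within a tumor. Psmb8 over Psmb5 was 1.12, 2.196, 1.87 and 1.88 in lean tumors before therapy, and 0.128, 0.0690, 0.0179 and 0.0204 after ETS. In obese tumors it was 0.0161, 0.0281, 0.0106 and 0.00531 before and 0.0749, 0.0404, 0.0553 and 0.125 after. Transcripts of the inducible subunit thus outnumbered the constitutive ones in each lean tumor before therapy and in none of the other 12 tumors. Psmb9 over Psmb6 was 0.773, 1.24, 1.18 and 1.16 in lean tumors before therapy and between 0.00322 and 0.0686 in the other 12. Psmb10 over Psmb7 was 0.663, 1.13, 0.860 and 0.9999 in lean tumors before therapy and between 0.0598 and 0.236 in the other 12.

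These ratios were tested with the 2-sided exact permutation test over tumors, whose smallest p for 4 against 4 is 0.0286, with adjustment over 15 tests. In lean tumors the log2 ratios changed after ETS by -5.34, -5.30 and -2.30, in the order above. Each had that smallest p (adjusted p = 0.0390) in the exact permutation test. In obese tumors the changes were 2.42, 1.74 and 1.21. Those of Psmb8 and Psmb10 reached the same smallest p (adjusted p = 0.0390), and that of Psmb9 did not, with p = 0.114 (adjusted p = 0.143) in the exact permutation test. Before therapy the obese tumors were lower, with log2 ratio differences of -7.09, -7.24 and -3.55, again at the smallest p of the exact test. After ETS the host differences were 0.67, -0.20 and -0.0446, with exact permutation p = 0.429, 0.771 and 0.8286 (adjusted p = 0.495, 0.827 and 0.8286). The ETS effects differed between hosts by -7.76, -7.04 and -3.51, with p = 0.00612, 0.0180 and 0.0171 (adjusted p = 0.0390 for each) over 4900 exact permutations of the host labels within treatment. These permutations assume no host difference at either time. The host difference before therapy can thus give a small p, which does not test the response to ETS by itself.

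**Figure D5:**
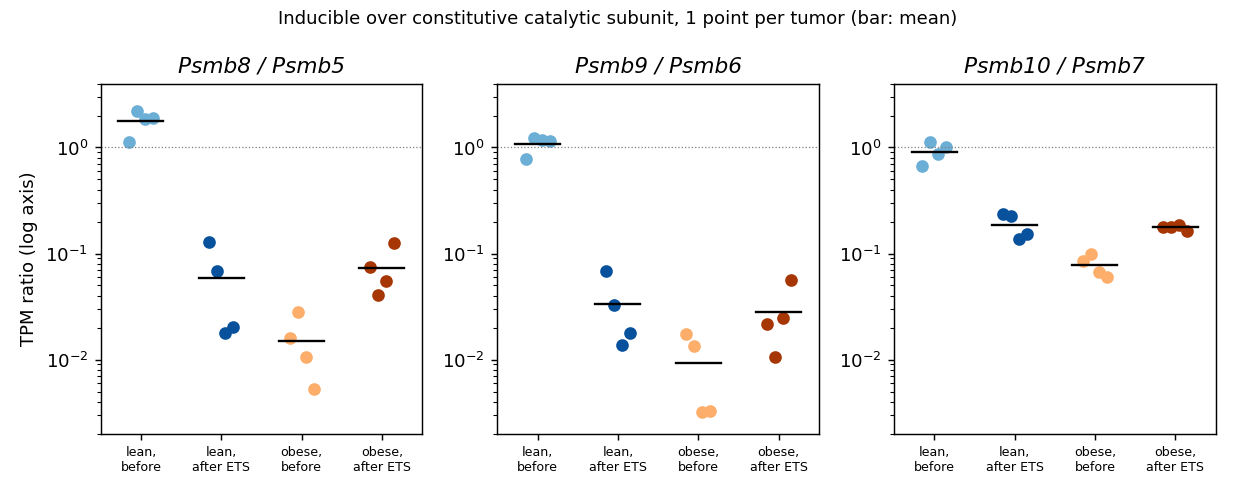
The TPM ratio of each inducible catalytic subunit to its constitutive counterpart is plotted per tumor on a log axis, with bars at the mean and a dotted line at 1. Lean tumors before therapy lie near or above the line, and all other tumors lie at or below 0.236.

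The inducible genes themselves were also read one by one. Psmb8 read 245, 347, 255 and 296 CPM in lean tumors before therapy and 28.7, 18.5, 3.31 and 3.59 CPM after ETS. The obese tumors had 2.52, 4.61, 1.89 and 0.830 CPM before and 14.3, 8.01, 8.30 and 18.2 CPM after. It changed by -4.40 (SE 0.650, adjusted p = 1.28e-04) in lean and 2.32 (SE 0.630, adjusted p = 0.00946) in obese tumors. Psmb9 changed by -4.66 (SE 0.624, adjusted p = 5.85e-05) and 1.51 (SE 0.615, adjusted p = 0.0617), and Psmb10 by -2.11 (SE 0.225, adjusted p = 9.68e-06) and 0.95 (SE 0.220, adjusted p = 0.00352). The direction and, by mean CPM, the order of groups were those of Psme1 and Psme2, on a larger scale. Unlike for Psme1 and Psme2, lean tumors after ETS and obese tumors before therapy overlapped for Psmb8 and Psmb9. On mean TPM the treated groups changed places for Psmb8, at 17.6 in lean and 18.4 in obese tumors.

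Cell markers also differed between the groups, though not all in the order of Psme1 and Psme2. The summed TPM of 12 macrophage markers was 786 to 2105 in lean tumors before therapy, 72.3 to 497 in lean tumors after ETS, 65.2 to 397 in obese tumors before therapy and 473 to 1560.0 in obese tumors after ETS. After ETS 8 of the 11 that could be tested fell in lean hosts, and 8 of 11 rose in obese hosts. Of all genes, 22.8% fell in lean and 21.2% rose in obese hosts. The 12 T and NK cell markers summed to 70.7 to 131 TPM in lean tumors before therapy and to at most 8.69 TPM in each other tumor. Of these, 11 were listed at 0 in at least 1 tumor, among them Cd3d, Cd3e, Cd8a, Cd4 and Ncr1. The 9 fibroblast markers summed to 239.8 to 843 and 40.3 to 189.9 TPM in lean and 40.8 to 243 and 254 to 2177 TPM in obese tumors before and after ETS, with 5 falling in lean and 9 rising in obese tumors. The 7 endothelial markers summed to 87.1 to 119 and 69.3 to 79.2 TPM in lean and 49.4 to 77.8 and 73.9 to 166 TPM in obese tumors, and the 6 adipocyte markers, 5 of them at 0 in some tumor, to 34.5 to 78.9, 19.5 to 38.9, 38.8 to 238 and 191 to 568 TPM in the same order. The 10 melanocyte markers, which include Pmel, Tyrp1 and Dct, summed to 21049.8 to 25957 and 19804 to 23974 TPM in lean and 10887 to 16031 and 11951 to 23281 TPM in obese tumors, so the markers of the labelled melanoma were abundant in each group. The part of these cells in the changes of Psme1, Psme2 and the ratios was not tested.

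Genes known to control the proteasome were read as a list of 13, which holds factors of both its interferon program and its recovery from stress. The lean tumors showed 5 falls and 2 rises after ETS, and the obese tumors 4 falls and 3 rises, against 22.8% and 21.0% of all genes in lean and 19% and 21.2% in obese tumors. Nlrc5 and Irf1 belong to the interferon program. Nlrc5, an activator of MHC class I and immunoproteasome genes, changed by -3.94 (SE 0.608, adjusted p = 1.80e-04) in lean and 1.64 (SE 0.590, adjusted p = 0.0373) in obese tumors. Irf1, an interferon gamma response factor, changed by -3.46 (SE 0.284, adjusted p = 1.47e-06) and 0.36 (SE 0.263, adjusted p = 0.294). Before therapy both were lower in obese tumors, with log2 differences of -6.11 and -4.12 (adjusted p = 1.59e-05 and 2.91e-07). Nfe2l1, the factor that restores proteasome genes when the proteasome is inhibited, read 212, 228, 235 and 277 CPM before and 317, 285, 300.5 and 286 CPM after ETS in lean tumors, a rise of 0.32 (SE 0.107, adjusted p = 0.0248) under TMM scaling, while its mean went from 113 to 108 TPM. In obese tumors it changed by 0.13 (SE 0.107, adjusted p = 0.366). Nfyb, a subunit of the CCAAT-binding factor NF-Y, changed by -0.21 (SE 0.0947, adjusted p = 0.0898) in lean and -0.71 (SE 0.0951, adjusted p = 8.38e-05) in obese tumors, with a called difference of 0.51 (SE 0.134, adjusted p = 0.0169). Its mean went from 21.8 to 14.6 TPM in lean and from 27.3 to 15.7 TPM in obese tumors. The size of its lean change and of the difference thus depended on scaling. Mafg, a small partner of Nfe2l1, fell in both hosts, -0.73 (SE 0.117, adjusted p = 2.22e-04) and -0.39 (SE 0.116, adjusted p = 0.0149).

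Of 10 further proteasome-associated genes, 9 were tested. Lean tumors showed 3 falls and 1 rise among them, and obese tumors 5 falls and no rise, beside the same shares of all genes. Uchl5, a deubiquitinase of the 19S particle, fell in both, -0.52 (SE 0.0829, adjusted p = 2.21e-04) and -0.56 (SE 0.0829, adjusted p = 1.77e-04), and Ecpas, an adaptor that holds core and cap together, did so too, -0.44 (SE 0.0837, adjusted p = 7.77e-04) and -0.28 (SE 0.0836, adjusted p = 0.0153). Sem1, a tiny lid subunit, changed in opposite directions in lean and obese tumors, 0.31 (SE 0.0887, adjusted p = 0.0115) and -0.28 (SE 0.0887, adjusted p = 0.0203), with a called difference of 0.59 (SE 0.125, adjusted p = 0.00475). The lean direction of Sem1 depended on scaling, since its mean went from 548 to 526 TPM. Pomp, the chaperone that joins the core's parts, was not called after ETS in either host, -0.02 (SE 0.0818, adjusted p = 0.890) and 0.05 (SE 0.0818, adjusted p = 0.639). Of 15 genes that supply ubiquitin or carry its substrates, the lean tumors showed 3 rises and no fall, and the obese tumors 1 rise and 4 falls, against the same shares of all genes, which put the 3 lean rises at the background. Among the lean rises were the polyubiquitin gene Ubb at 0.35 (SE 0.1198, adjusted p = 0.0265) and the autophagy receptor Sqstm1 at 0.49 (SE 0.121, adjusted p = 0.00466), but the mean of Ubb went from 1872 to 1832 TPM. In obese tumors Rps27a, a ubiquitin fusion gene, changed by -0.43 (SE 0.112, adjusted p = 0.00784) and Uba1, the main ubiquitin-activating enzyme, by 0.42 (SE 0.124, adjusted p = 0.0142).

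The members lie on 16 chromosomes of the mouse genome (GRCm38.p6). Psme1 (chr14:55578494-55581527) and Psme2 (chr14:55587440-55591101) are neighbours on chromosome 14, 5912 bases apart, whereas Psme3 lies at chr11:101316213-101323537. Of the 43 genes, 12 overlap another annotated gene, 7 of them a protein-coding or long noncoding one. Psme1 shares bases with Emc9, and a near copy of Psme2, Psme2b, has its own row in the table, so reads of these could be shared or split. Transcripts of the members, by the GENCODE vM21 principal isoform, ranged from 555 to 6491 bases with a median of 1440. Across the 43 members the Spearman correlation of the change after ETS with transcript GC content was 0.307 in lean and 0.532 in obese tumors. Across the 15042 tested genes with a transcript it was 0.250 and 0.330. The genes share the same 16 libraries, and the correlations describe these libraries. The 20 members that fell in obese tumors had a median GC content of 46.5%, and the 20 not called had one of 53.1%. The part of GC content in the falls was not tested. With transcript length, the members' correlations were -0.0714 in lean and -0.0950 in obese tumors, against -0.226 and 0.0106 over all tested genes.

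The stretch of 250 bases before the annotated start was read from RefSeq (GRCm38.p6) for 36 of the 43 genes. Psmb1, Psmb2, Psmb7, Psmc3, Psmd3, Psmd7 and Psmg2 had no entry. It was searched on both strands for the core of the antioxidant response element to which Nfe2l1 and Nfe2l2 bind (TGACNNNGC), the NF-Y box (CCAAT) and the interferon-stimulated response element (GAAA, any 2 bases, GAAA). A stretch that matches more than 1 motif counts for each. Of these, 6 are printed, in lower case and 5′ to 3′ on the gene's strand, with matches in capitals: the PA28 pair with the opposite changes between hosts, their relative Psme3, the core and cap genes with the largest falls in obese tumors (Psma1 and Psmc6), and the active-site gene Psmb5. They lie at chr14:55578244-55578493 (plus strand), chr14:55591102-55591351 (minus), chr11:101315963-101316212 (plus), chr7:114276117-114276366 (minus), chr14:45329574-45329823 (plus) and chr14:54617996-54618245 (minus).
Psme1: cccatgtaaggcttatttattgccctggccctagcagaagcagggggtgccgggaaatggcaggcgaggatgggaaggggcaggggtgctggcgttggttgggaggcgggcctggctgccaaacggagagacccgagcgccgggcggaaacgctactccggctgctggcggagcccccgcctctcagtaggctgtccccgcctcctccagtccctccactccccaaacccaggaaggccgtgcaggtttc
Psme2: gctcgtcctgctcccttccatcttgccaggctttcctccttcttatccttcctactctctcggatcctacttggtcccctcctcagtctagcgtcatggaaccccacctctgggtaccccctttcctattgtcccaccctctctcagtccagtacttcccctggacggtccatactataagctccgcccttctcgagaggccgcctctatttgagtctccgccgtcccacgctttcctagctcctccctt
Psme3: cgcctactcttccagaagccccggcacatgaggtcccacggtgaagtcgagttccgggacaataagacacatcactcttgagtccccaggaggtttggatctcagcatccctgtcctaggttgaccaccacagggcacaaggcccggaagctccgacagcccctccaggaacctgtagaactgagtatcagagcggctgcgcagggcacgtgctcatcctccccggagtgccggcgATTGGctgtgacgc
Psma1: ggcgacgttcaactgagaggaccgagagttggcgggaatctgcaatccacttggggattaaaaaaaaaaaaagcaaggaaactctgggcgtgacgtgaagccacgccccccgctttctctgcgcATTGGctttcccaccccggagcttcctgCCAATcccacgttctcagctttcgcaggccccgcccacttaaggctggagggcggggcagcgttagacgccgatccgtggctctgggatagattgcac
Psmc6: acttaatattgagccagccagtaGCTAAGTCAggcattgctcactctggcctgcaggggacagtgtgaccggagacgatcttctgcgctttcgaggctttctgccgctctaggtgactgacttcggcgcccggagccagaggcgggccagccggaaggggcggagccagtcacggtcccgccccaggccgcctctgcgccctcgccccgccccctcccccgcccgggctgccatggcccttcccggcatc
Psmb5: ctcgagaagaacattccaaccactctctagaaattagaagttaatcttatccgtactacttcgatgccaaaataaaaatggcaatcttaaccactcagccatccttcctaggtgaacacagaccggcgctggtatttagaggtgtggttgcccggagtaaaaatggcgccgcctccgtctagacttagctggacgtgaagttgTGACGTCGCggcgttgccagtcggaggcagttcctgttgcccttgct

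None of the 3 motifs matched in the windows of Psme1 and Psme2, which says only that these letters are not there. Psme3 had an NF-Y box that begins 14 bases before the start, on the minus strand, and Psma1 had 2, beginning 126 and 98 bases before it on opposite strands. Psmc6 had an antioxidant response core 227 bases before the start and Psmb5 one 47 bases before it. Over the 36 genes the NF-Y box matched in 12 (33.3%), against 37.5% of the 27025 genes with an entry. Of these 12, 5 were alpha ring genes (Psma1, Psma2, Psma3, Psma6 and Psma7). In obese tumors the matched genes that fell were these 5, Psmc1, Psmc2 and Psmd14, and 4 (Psmb3, Psmd4, Psmd10 and Psme3) were not called. Of the genes read without a match, Psma4, Psma5, Psmc6, Psmd5, Psmd6, Psmd11, Psmd12, Psme4 and Psmg1 fell there, and the rest did not. Among all genes tested, 19% fell there. The part of the NF-Y box in the falls was not tested. The antioxidant response core matched in 5 (13.9%, against 11.5%), namely Psmb5, Psmb6, Psmc6, Psmd9 and Psmd12. The interferon-stimulated response element matched in Psmb3, Psmd4 and Psmd9 (8.33%, against 3.46%), none of which was called after ETS in either host. These shares describe letters and not binding.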

How the data were processed

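Stranded poly(A) RNA libraries of 16 tumors, 4 per group, were analysed. The condition and number of each tumor come from the labels. Per the submitters' processing notes, reads were made with bcl2fastq 2.20.0, trimmed with Trimmomatic, aligned to mm10 with HISAT2 2.1.0 and quantified with StringTie 2.1.3b. The authors deposited raw counts per gene, estimated from coverage, and TPM values of the same step. FPKM columns (16) were not used. Whether counting used strand is not given in the sources used here.

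Of 45777 genes, the 29568 at 0 in any tumor were left out, following the study's methods. Counts were scaled by TMM and tested with edgeR 4.0.16 (R 4.3.3) by quasi-likelihood in a fit of all 16 tumors with a mean per group, adjusted by the Benjamini-Hochberg method at 0.05. The steps were tested on simulated data. Tumors of a group differed by more than sampling noise in all 24 pairs. Ratios of TPM were tested by exact permutation (scipy 1.17.1). Alternatives used DESeq2 1.42.0 and limma 3.58.1 and other scalings and filters. The genes named are the active-site, activator, inhibitor, Psmd4 and Psmg genes, plus, for each comparison, the 3 called members with the largest change in each direction. Other genes of the pathway are named where called with the 3 largest changes of their list, except for some that are not reported here, nor is 1 further promoter motif. Psmd14, Psmc1, Psmc2, Psma2 and Psma7 were added to show calls that did or did not hold. The members and lists were chosen with earlier results of these data known. Locations and promoter windows come from RefSeq (GRCm38.p6), matched by gene ID.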

Additional observations from a re-analysis of the deposited data

Results flagged for a closer look

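The response to ETS differed between hosts, by the edgeR test of the difference, for 4 members. The lean minus obese log2 effects were -1.88 for Psme1, -2.35 for Psme2, -0.37 for Psmb2 and 0.36 for Psmd5. The log2 ratios of Psmb8 to Psmb5 (-7.76), Psmb9 to Psmb6 (-7.04) and Psmb10 to Psmb7 (-3.51) were flagged by exact permutation of host labels within treatment. That permutation assumes no host difference at either time, so it does not test the response alone.

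In 3 of 88 gene and group combinations a tumor stood far from the other 3 of its group by Dixon's criterion, which chance gives in about 1 of 20. Psma5 was at 82.5 CPM in obese tumor 1 after ETS, with the others between 88.0 and 88.8 CPM. Psmd5 was at 59.2 CPM in obese tumor 1 before therapy, with the others between 55.5 and 55.7 CPM. Psmf1 was at 57.9 CPM in lean tumor 1 before therapy, with the others between 49.3 and 50.7 CPM. The falls of Psma5 in obese tumors and of Psmd5 in obese tumors, and the rise of Psmf1 in lean tumors, were called in each fit that left out a single tumor.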

How the results depend on the processing

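Scaling had the largest influence on the counts of members. The effects of Psme1 and Psme2 in each host and the difference between hosts kept their direction and call under the alternatives run. With library totals only, the lean effect called 1 member up and 24 down, the difference called 0 up, obese against lean called 1 up before therapy and 0 down after ETS. Among all 16209 genes the last 3 counts were 557, 1886 and 212. With limma on log2(TPM + 1) and on log2(TPM + 0.1) alike, these counts were 0 up and 34 down for the lean effect, 0 up for the difference, 0 up and 7 down before therapy and 0 down after ETS. Among all genes log2(TPM + 1) gave 228 up for the difference, 1127 up and 2765 down before therapy and 128 down after ETS. That puts the 7 lower members before therapy near the background. With each tumor centred on its median gene, chosen after seeing the data, they were 6 up and 7 down for the lean effect, 6 up for the difference, 5 up before therapy and 2 down after ETS. Among all genes the last 3 were 3424, 3532 and 558, so the members' share of rises was below the background. With all genes kept, the difference called 0 up, and obese against lean 1 up before and 0 down after ETS. Among the 28754 genes then tested these were 801, 1792 and 195. With edgeR's expression filter and with DESeq2 the difference called 3 up, and DESeq2 called 3 down after ETS. All genes gave 1312 of 17746 up with the filter, and 1414 up and 953 down of 16209 with DESeq2. With the exact test, 1 was up before therapy and 0 down after ETS, and with only the 2 groups compared 1 was up in lean tumors, 1 up before therapy and 0 down after ETS. Among all genes these were 2108 and 276 with the exact test, and 3519, 1977 and 16 with the 2 groups. The cause of these shifts was not tested.

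On the TPM scales with 1 and 0.1 added, the lean effects turned to -0.0582 and -0.0584 for Psmb1, -0.0269 and -0.0270 for Psmb5, -0.0969 and -0.0972 for Psmb6, -0.234 and -0.234 for Psmb7, -0.250 and -0.251 for Psmd4, -0.374 and -0.381 for Psmd5 and -0.242 and -0.243 for Psme3.

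Leaving out single tumors gave 1 to 4 members up and 10 to 14 down for the lean effect, 3 up and 14 to 21 down for the obese effect, 0 to 3 up and 2 to 3 down for the difference, 0 to 3 up and 2 to 4 down before therapy, and 0 up and 0 to 3 down after ETS. The obese effect on the log2 ratio of Psmb8 to Psmb5 ranged from 2.01 to 2.81 and lost its call without any of the obese tumors after ETS, where 3 tumors remained (2.13 to 2.67).

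Tumors share numbers across groups, but not every same-numbered pair deviated together. Their correlations ranged from -0.112 to 0.452 with a median of 0.0729, and 11 of 24 were over 0.1, against a median of -0.0398 and 18 of 72 for tumors of different number. The main fit did not use the number to pair tumors, since the study used no such block. A replicate block called 4 members up in lean tumors, 2 up for the difference and 2 down after ETS. Among all 16209 genes it called 3707, 1296 and 801.

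Each of the 43 members had reads in every tumor, and the number of tumors limits the precision.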
